A study of Mus musculus with 2 samples.

Results

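Described here are 51 genes of mitochondrial respiration, taken by symbol from the 27998 genes listed for both libraries. Of these, 11 are protein-coding genes of mitochondrial DNA, 29 are nuclear genes of the respiratory chain and ATP synthase, and 11 are nuclear genes of the citric acid cycle. Their UMIs (unique molecular identifiers, 1 per captured transcript) were followed in 15 marker-gated cell types of the mouse liver. The cells were non-parenchymal liver cells, obtained by perfusion and density gradient, of mice kept for 8 weeks on an MCD diet, which lacks methionine and choline. The PKM2ΔMAC library takes its name from the loss of PKM2, an isoform that Pkm encodes for the last step of glycolysis, in macrophages. It was set against the PKM2FL/FL library, which carries the floxed alleles. Both genotypes were on the diet. The sources used here do not give the number, age or sex of the mice or which Cre line was used. With 1 library per genotype there was no replicate check and no test: every difference below is one between these 2 libraries, and intervals (95%, in parentheses) cover counting error only.

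The respiratory chain passes electrons from NADH and succinate to oxygen through complexes I to IV and pumps protons, and ATP synthase uses the resulting gradient to make ATP. Complexes I, III and IV and ATP synthase are assembled from subunits of both genomes, whereas complex II and cytochrome c are encoded in the nucleus alone. Mitochondrial DNA is transcribed as long precursors that are cut into the individual messengers, so its genes share their transcription. The citric acid cycle, in the mitochondrial matrix, supplies the chain with NADH and succinate. In macrophages, pyruvate kinase sits just upstream, at the step that delivers pyruvate to mitochondria.

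The PKM2ΔMAC library held 8949 barcodes with 43134027 UMIs and the PKM2FL/FL library 10054 barcodes with 54519921 UMIs. After filtering, 8573 and 9515 cells remained, and the libraries shared 17 barcodes. Cells were gated by counting markers, and 9 types with at least 50 cells in each library were compared. In every gated type all markers found were higher than in the other types, which follows from a gate that counts these same markers. Among the 274 Kupffer-like cells, named for the resident liver macrophages, the gate markers C1qb and C1qc were found in 97.4% and 94.2%. Of those cells 86.1% lay in the cluster of the same name, compared with 93.2% to 97.6% in the other 8 types. The clusters were named from the same markers, so they are not an independent check of the names. Pkm, the targeted gene, had 145.2 CPM in PKM2ΔMAC and 369.1 CPM in PKM2FL/FL Kupffer-like cells (ratio 0.393, 0.266 to 0.570), and 269 CPM against 659 CPM in classical monocyte-like cells (ratio 0.408, 0.344 to 0.481). CPM are UMIs per 1000000 UMIs of all cells of a type in a library. Counts at the 3′ end do not separate the isoforms of Pkm, so these values do not show the deletion itself. Less Pkm in the PKM2ΔMAC library was not confined to these types. The ratio was 0.463 (0.421 to 0.509) in neutrophil-like and 0.720 (0.681 to 0.761) in T-like cells. In the other compared types it ran from 0.69 in plasmacytoid dendritic-like to 0.789 (0.544 to 1.13) in endothelial-like cells.

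The sum of the 11 mitochondrially encoded genes was lower in PKM2ΔMAC cells in 7 of the 9 compared types and slightly higher in T-like and in NK or ILC1-like cells. Kupffer-like cells had the lowest ratio of the 9, with 12377 CPM (11955 to 12811) in PKM2ΔMAC and 21220 CPM (20733 to 21717) in PKM2FL/FL, a log2 ratio of -0.78 (-0.84 to -0.72). All log2 ratios are of PKM2ΔMAC over PKM2FL/FL. Endothelial-like cells had 22446 CPM in PKM2ΔMAC and 32781 CPM in PKM2FL/FL (-0.55, -0.60 to -0.50). Classical monocyte-like cells had 18469 CPM against 23029 CPM (-0.32, -0.35 to -0.29). The ratios were close to this in conventional dendritic-like cells (-0.30) and plasmacytoid dendritic-like cells (-0.26), and smaller in B-like cells (-0.13). Neutrophil-like cells had 4691 CPM in PKM2ΔMAC and 6555 CPM in PKM2FL/FL, a log2 ratio of -0.48, or -0.21 after subtraction of the median of all genes in that type (-0.27). With clusters in place of the gate their log2 ratio was -0.80, below that of Kupffer-like cells at -0.67, and it was -0.73 without gated cells of other clusters. T-like cells had 32115 CPM in PKM2ΔMAC and 30098 CPM in PKM2FL/FL (0.09, and 0.23 after subtraction of a median of -0.14), and NK or ILC1-like cells 26273 CPM against 25117 CPM (0.06). Among the 9 types the sum was highest in B-like cells in the PKM2ΔMAC library and in plasmacytoid dendritic-like cells in the PKM2FL/FL library, and in both it was lowest in neutrophil-like cells, which rely mainly on glycolysis.

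The 29 nuclear genes did not follow. Their sum differed by at most 0.21 on the log2 scale in any compared type, and by 0.06 or less in classical monocyte-like, conventional dendritic-like, neutrophil-like, T-like and NK or ILC1-like cells. In neutrophil-like cells it stood at -0.03, which becomes 0.24 relative to the median of all genes. Plasmacytoid dendritic-like cells had 7775 CPM in PKM2ΔMAC and 6843 CPM in PKM2FL/FL (0.18, 0.14 to 0.22) and B-like cells 5247 CPM against 4859 CPM (0.11, 0.09 to 0.13). Kupffer-like cells had 9400.5 CPM (9032.7 to 9779.5) in PKM2ΔMAC and 8152 CPM (7851 to 8462) in PKM2FL/FL (0.21, 0.13 to 0.28). That value depended on the mix with 38 Kupffer-like cells outside their own cluster, 13 in PKM2ΔMAC and 25 in PKM2FL/FL. Without them the sums were 10716 CPM in PKM2ΔMAC and 10556 CPM in PKM2FL/FL, a log2 ratio of 0.02, and in those cells alone the log2 ratio was 0.07. Kupffer-like cells carried 1.32 mitochondrially encoded UMIs per nuclear respiratory chain UMI in PKM2ΔMAC and 2.60 in PKM2FL/FL. The same quotient was 1.18 against 1.61 in neutrophil-like cells and 2.42 against 3.05 in classical monocyte-like cells. It was 5.12 against 4.85 in T-like cells and 3.70 against 3.67 in NK or ILC1-like cells.

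**Figure D1:**
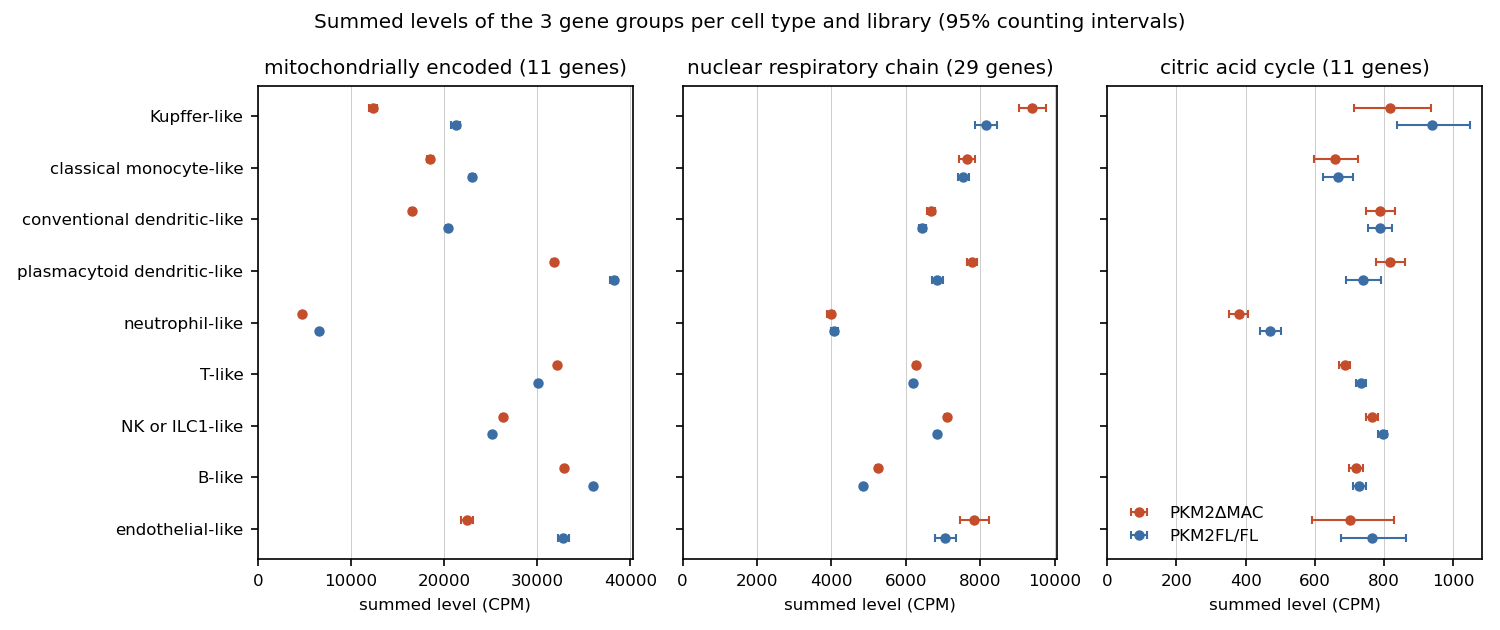
Summed level in CPM (x axis) of the 3 gene groups in the 9 compared cell types (y axis), PKM2ΔMAC cells above PKM2FL/FL cells, with 95% counting intervals. The mitochondrially encoded sum lies at 12377 CPM in PKM2ΔMAC and 21220 CPM in PKM2FL/FL Kupffer-like cells and at 22446 CPM and 32781 CPM in endothelial-like cells, whereas the points of the other 2 groups lie closer together.

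The mitochondrially encoded genes lie on the mitochondrial chromosome (mm10) between mt-Nd1, which starts at 2751, and mt-Cytb, which ends at 15288, all on the plus strand. A gene with at least 100 UMIs over both libraries in a cell type was counted as higher in PKM2ΔMAC cells where its CPM were at least 25% above those in PKM2FL/FL, and as lower where they were at least 20% below. In Kupffer-like cells 9 of the 11 passed this minimum, and all 9 were lower, where 20.1% of all genes that passed were lower. Without the Kupffer-like cells of other clusters 8 passed and all 8 were lower, where 18.5% of all genes were. The catalytic subunit of complex IV, mt-Co1, had 2790 CPM in PKM2ΔMAC and 4683 CPM in PKM2FL/FL (ratio 0.596, 0.545 to 0.651). The proton channel subunit of ATP synthase, mt-Atp6, had 2999.8 CPM against 4674 CPM (ratio 0.642, 0.588 to 0.70). Cytochrome b of complex III, mt-Cytb, had 864 CPM against 1677 CPM (ratio 0.515, 0.439 to 0.602). The complex I subunit mt-Nd5 had 134 CPM against 266 CPM (ratio 0.503, 0.330 to 0.751). The 9 log2 ratios ran only from -0.99 to -0.64, and the sums per complex from -0.96 for complex III to -0.64 for ATP synthase. The members under the minimum, mt-Nd3 and mt-Nd4l, had 16 and 18 UMIs in PKM2ΔMAC against 49 and 54 in PKM2FL/FL.

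In the other types the mitochondrially encoded genes were less even. Classical monocyte-like cells had 5 of 11 lower (16.3% of all genes lower, 15.9% higher) and none higher. There mt-Co2, which receives electrons from cytochrome c, had 3173 CPM in PKM2ΔMAC and 4405 CPM in PKM2FL/FL (ratio 0.720, 0.685 to 0.758), whereas mt-Co1 stood at -0.15. Conventional dendritic-like cells had 3 of 11 lower, close to the 23.0% of all genes, among them mt-Nd3 with 82.2 CPM in PKM2ΔMAC and 129 CPM in PKM2FL/FL (ratio 0.637, 0.522 to 0.775). Neutrophil-like cells had 10 of 11 lower, where 44.4% of all genes were lower, and mt-Nd2 reached 146 CPM in PKM2ΔMAC against 257 CPM in PKM2FL/FL (ratio 0.568, 0.488 to 0.660). Endothelial-like cells had 9 lower (18.4% of all genes) and 1 higher (28.1%). In T-like, NK or ILC1-like and B-like cells none of the 11 was lower, where 27.9%, 16.1% and 17.2% of all genes were. Over all 97 pairs of a mitochondrially encoded gene and a cell type that passed, 40 were lower and 4 higher. Over all genes and the 9 types 22.2% were lower and 10.0% higher. Of the 43495 pairs behind these pooled shares, 9178 came from T-like, 9350 from NK or ILC1-like and 8010 from B-like cells. Members passed more evenly over the types, so the pooled shares here and below are only a rough measure for them. The types come from the same 2 libraries and are not independent of each other.

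All 4 of the higher pairs belonged to mt-Nd4l, a complex I subunit whose reading frame shares a messenger with mt-Nd4. T-like cells had 251 CPM of mt-Nd4l in PKM2ΔMAC and 182 CPM in PKM2FL/FL (ratio 1.38, 1.31 to 1.45), next to 2561 CPM and 2302 CPM of mt-Nd4 (ratio 1.11, 1.10 to 1.13). Plasmacytoid dendritic-like cells had 259 CPM of mt-Nd4l in PKM2ΔMAC and 203 CPM in PKM2FL/FL (ratio 1.28, 1.09 to 1.5), while mt-Nd4 had 2440 CPM against 2890.4 CPM (ratio 0.844, 0.807 to 0.883). Endothelial-like cells showed the same opposition, with log2 ratios of 0.48 for mt-Nd4l and -0.53 for mt-Nd4, although the interval of the mt-Nd4l ratio reached 0.958. The 2 genes overlap on the chromosome, mt-Nd4l from 9877 to 10173 and mt-Nd4 from 10167 to 11544, and the sources used here do not say how reads across that overlap were counted. Outside the 51 genes, mt-Atp8, which shares a messenger with mt-Atp6, had 63.8 CPM in PKM2ΔMAC and 46.1 CPM in PKM2FL/FL T-like cells (ratio 1.38), next to a ratio of 1.09 (1.08 to 1.10) for mt-Atp6. The short gene mt-Nd3 did not go this way: its log2 ratio was -0.01 in T-like cells and below 0 in the 7 other types in which it passed.

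**Figure D2:**
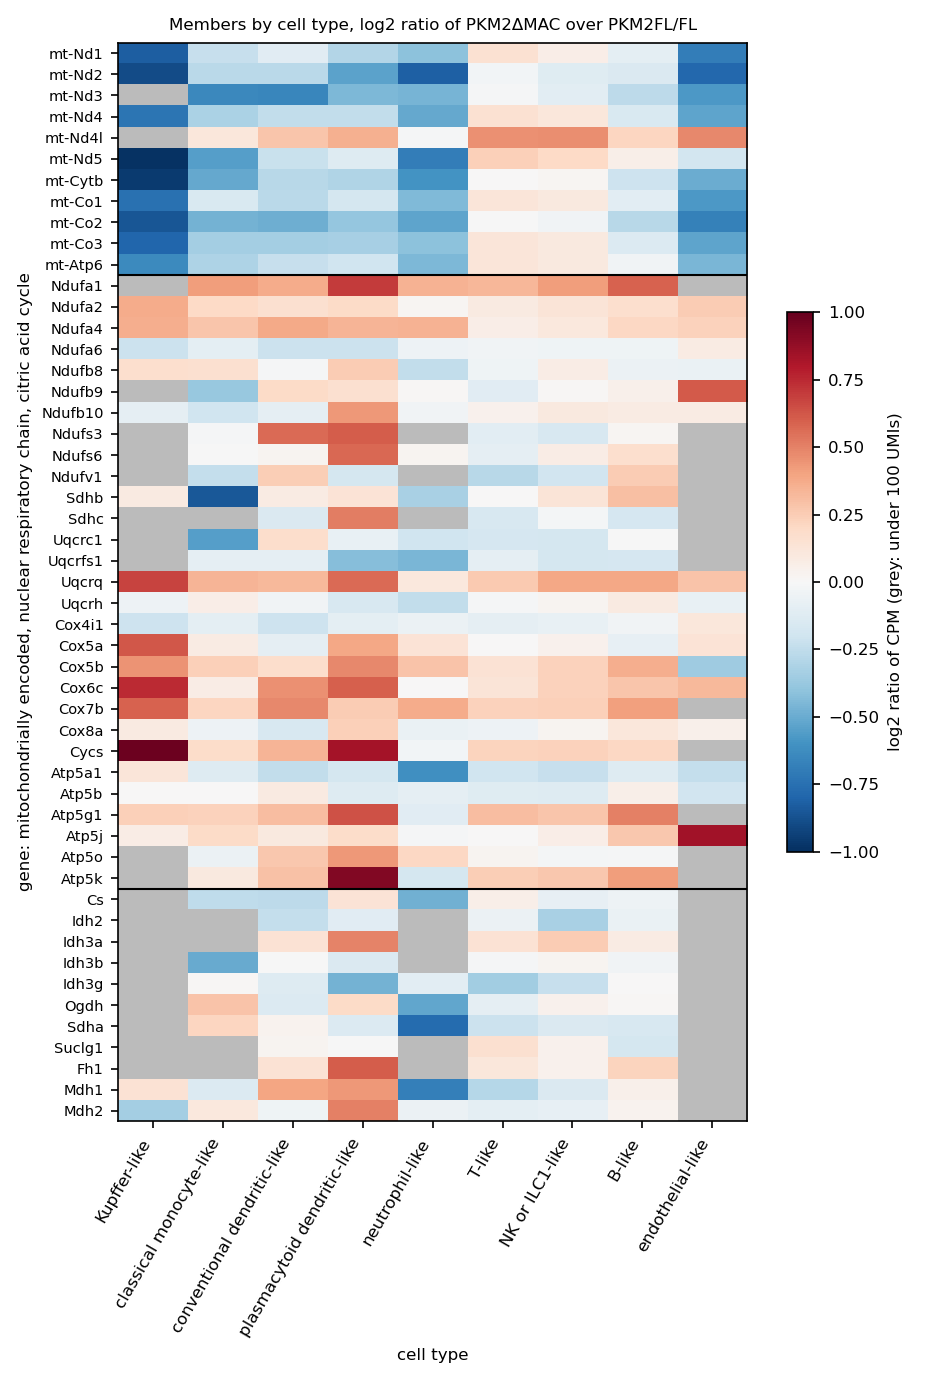
Log2 ratio of CPM of PKM2ΔMAC over PKM2FL/FL for the 51 genes (rows, in 3 groups parted by lines) in the 9 compared cell types (columns), with grey where a gene had under 100 UMIs and colours ending at -1 and 1. The mitochondrially encoded rows are blue in Kupffer-like, neutrophil-like and endothelial-like cells apart from mt-Nd4l and, in Kupffer-like cells, mt-Nd3, which is grey. Rows such as Ndufa1, Uqcrq and Cox7b are red across types.

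The sum over Kupffer-like cells hid a spread between cells. The share of a cell's UMIs from mitochondrial DNA had a median of 0.228% in 127 PKM2ΔMAC cells (quartiles 0.0796% and 0.618%) and of 0.942% in 147 PKM2FL/FL cells (0.280% and 2.60%). Under 0.5% lay 92 PKM2ΔMAC cells (72.4%, 63.8% to 80.0%) and 60 PKM2FL/FL cells (40.8%, 32.8% to 49.2%). With every cell thinned to 500 UMIs the shares of cells were 66.9% and 40.1%. Endothelial-like cells were split in the same way, with 43.1% of 123 PKM2ΔMAC and 17.1% of 76 PKM2FL/FL cells under 0.5% and medians of 0.644% and 2.84%. Their median depth differed as well, at 918 UMIs in PKM2ΔMAC and 2152.5 UMIs in PKM2FL/FL, whereas Kupffer-like cells had 1180 and 1210 UMIs. Neutrophil-like cells lay mostly under 0.5% in both libraries, 91.6% in PKM2ΔMAC and 80.2% in PKM2FL/FL. In classical monocyte-like cells the lower level was a shift of the middle of the range: the medians were 1.78% and 2.19%, and 0 of 87 PKM2ΔMAC and 1 of 164 PKM2FL/FL cells lay under 0.5%. The top of the range went the other way, with 90th percentiles of 4.14% in PKM2ΔMAC and 3.40% in PKM2FL/FL.

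**Figure D3:**
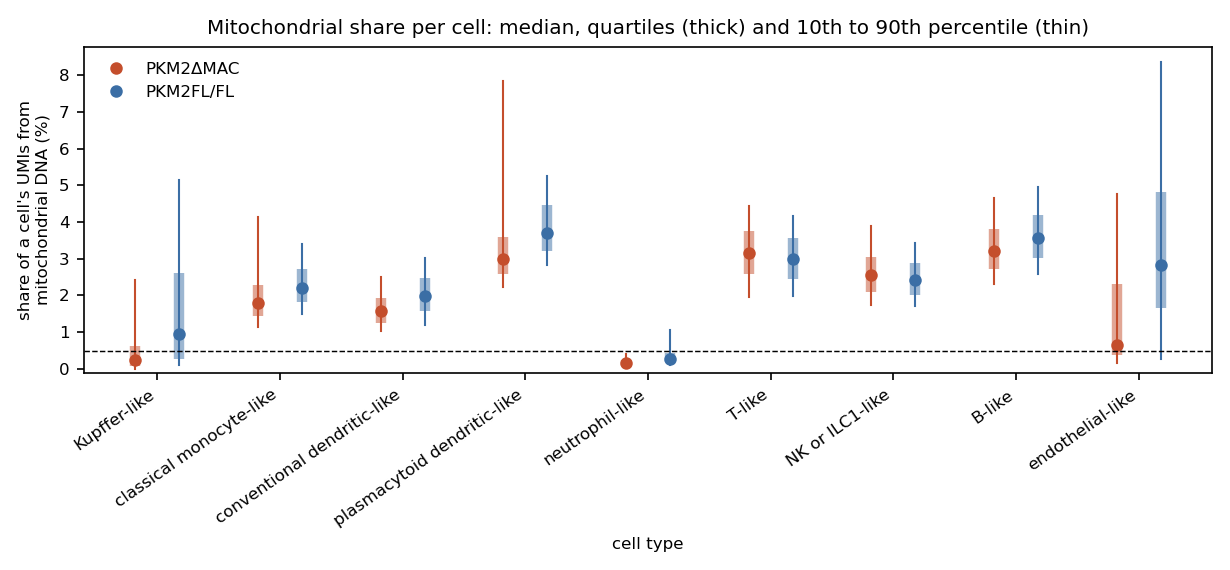
Share of each cell's UMIs from mitochondrial DNA in percent (y axis) by cell type (x axis), PKM2ΔMAC left of PKM2FL/FL, with the median as a point, the quartiles as a thick bar and the 10th to 90th percentile as a thin line. The dashed line marks 0.5%, with the PKM2ΔMAC median of Kupffer-like cells at 0.228% under it and the PKM2FL/FL median at 0.942% above it.

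Kupffer-like cells under and over 0.5% differed in more than mitochondrial RNA. Nuclear respiratory chain genes took a larger share of the UMIs under 0.5%, with 11384 CPM in PKM2ΔMAC and 11193 CPM in PKM2FL/FL. At or over 0.5% they had 7346 CPM and 7219 CPM. This was not more RNA per cell: under 0.5% they had 1516 UMIs in 92 PKM2ΔMAC and 890 UMIs in 60 PKM2FL/FL cells. At or over 0.5% they had 944 UMIs in 35 and 1871 UMIs in 87 cells. Median depth was 1016.5 UMIs in PKM2ΔMAC and 1150.5 UMIs in PKM2FL/FL cells under 0.5%, against 2024 and 1299 UMIs at or over it. Between the libraries the ratio of the nuclear sum was 1.02 (0.936 to 1.11) under 0.5% and 1.02 (0.940 to 1.10) at or over it. The citric acid cycle sum was 976 CPM in PKM2ΔMAC and 1396 CPM in PKM2FL/FL under 0.5% (ratio 0.699, 0.539 to 0.909), and 654 CPM and 799 CPM at or over it (ratio 0.818, 0.627 to 1.06). The mitochondrially encoded sum, which the split itself uses, was at -0.58 under 0.5% and at -0.19 at or over it. At or over 0.5%, 9 of these genes passed and 3 were lower, and under it 1 passed and was lower. The shares of all genes on each side are not given here. At or over 0.5% the ratio was 0.896 (0.818 to 0.980) for mt-Co1 and 0.970 (0.887 to 1.06) for mt-Atp6. The Kupffer markers summed to 35735 CPM in PKM2ΔMAC and 35527 CPM in PKM2FL/FL under 0.5%, and to 13399 CPM and 13748 CPM at or over it. Malat1, a long noncoding RNA kept in the nucleus, had 1727 CPM in PKM2ΔMAC and 3873 CPM in PKM2FL/FL under 0.5%, but 15920.0 CPM and 14948 CPM at or over it. Markers of T, NK and B cells summed to 180.2 CPM in PKM2ΔMAC and 176 CPM in PKM2FL/FL under 0.5%, and to 1066 CPM and 992 CPM at or over it. Red cell RNA, a list of 5 genes, was at 0 UMIs in PKM2ΔMAC cells under 0.5% (up to 27.7 CPM) and at 11042 CPM in PKM2FL/FL cells under 0.5%, or 878 UMIs. At or over 0.5% it was at 15.6 CPM in PKM2ΔMAC and 46.3 CPM in PKM2FL/FL. Over all Kupffer-like cells, 9 smooth muscle and fibroblast markers summed to 417 CPM in PKM2ΔMAC, with 4 markers at 0, and to 2.95 CPM in PKM2FL/FL, with 8 at 0, and 8 endothelial markers summed to 195 CPM in PKM2ΔMAC and 410.4 CPM in PKM2FL/FL. The part of these differences in the level of the respiratory genes was not tested.

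**Figure D4:**
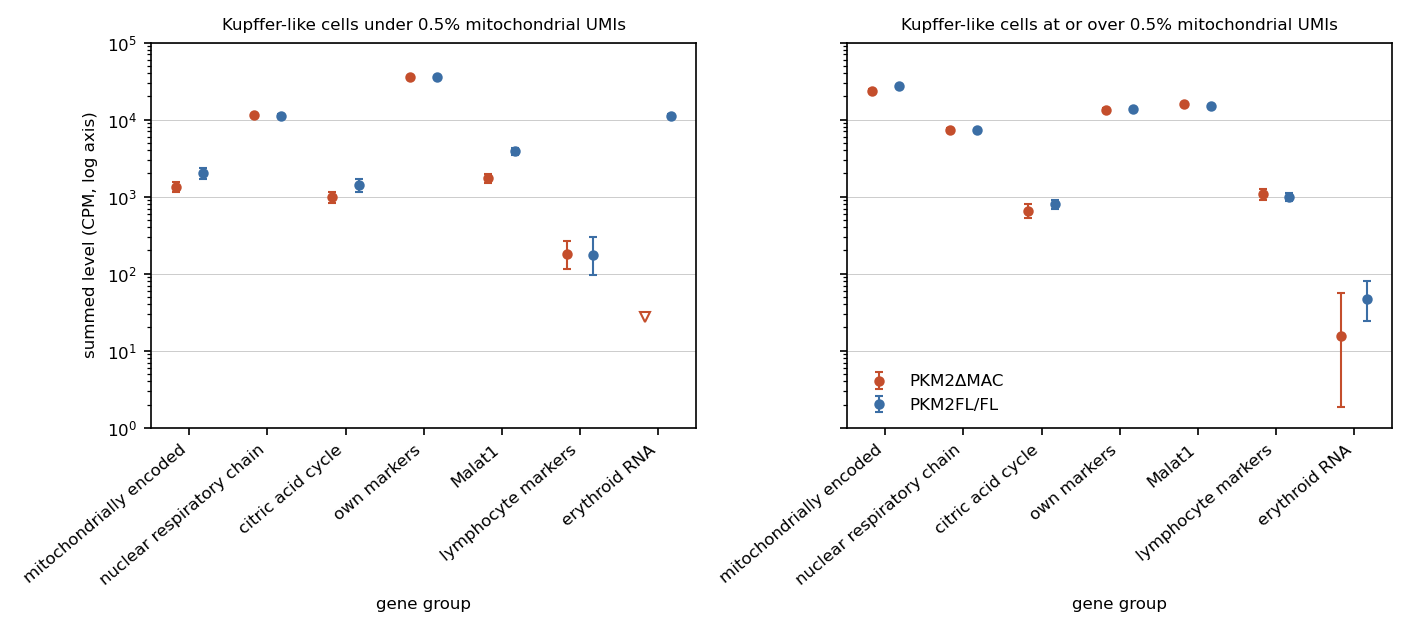
Summed level in CPM (y axis, log scale) of 7 gene groups (x axis) in Kupffer-like cells under 0.5% (left) and at or over 0.5% (right) mitochondrial UMIs, PKM2ΔMAC left of PKM2FL/FL, with 95% counting intervals and an open triangle for the upper limit of a count of 0. Cells under 0.5% have little Malat1 and much marker RNA in both libraries, with 11384 CPM in PKM2ΔMAC and 11193 CPM in PKM2FL/FL of nuclear respiratory chain RNA.

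The 29 nuclear genes were more often higher than lower. Over the 234 pairs of gene and type that passed, 46 were higher and 8 lower, where 10.0% of all genes were higher and 22.2% lower. Kupffer-like cells had 8 of 19 higher, where 22.6% of all genes were higher, and none lower. Without the cells of other clusters 4 of 15 were higher and 1 lower, where 15.9% of all genes were higher and 18.5% lower. Cytochrome c, Cycs, which carries electrons from complex III to complex IV, had 309.5 CPM in PKM2ΔMAC and 156 CPM in PKM2FL/FL Kupffer-like cells (ratio 1.98, 1.38 to 2.85). The complex IV subunit Cox5a had 1070.0 CPM against 694 CPM (ratio 1.54, 1.29 to 1.84), and Cox6c of the same complex 599.95 CPM against 357 CPM (ratio 1.68, 1.32 to 2.15). In the Kupffer-like cells of the matching cluster Cox6c still had 741 CPM in PKM2ΔMAC and 527 CPM in PKM2FL/FL (ratio 1.41, 1.07 to 1.86), and Cox5a stood at 0.20 on the log2 scale. Cox4i1, another complex IV subunit, stood at a log2 ratio of -0.21 in all Kupffer-like cells and was the lower member of the matching cluster, with 902.4 CPM in PKM2ΔMAC and 1194 CPM in PKM2FL/FL (ratio 0.756, 0.611 to 0.933). Plasmacytoid dendritic-like cells had 14 of 29 higher (18.6% of all genes) and 1 lower (17.8%), with Atp5k, a small ATP synthase subunit, at 134 CPM in PKM2ΔMAC and 70.8 CPM in PKM2FL/FL (ratio 1.90, 1.47 to 2.47). Conventional dendritic-like cells had 7 of 29 higher (11.5%) and none lower (23.0%), and B-like cells 6 of 29 higher (8.46%) and none lower.

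A few nuclear genes were higher in PKM2ΔMAC in several types. The share of all genes that were higher in as many types is not given here. Ndufa1, a small complex I subunit encoded on the X chromosome, was higher by this measure in all 7 types in which it passed. It had 112 CPM in PKM2ΔMAC and 88.9 CPM in PKM2FL/FL T-like cells (ratio 1.26, 1.17 to 1.36), 132.0 CPM against 99.0 CPM in NK or ILC1-like cells (ratio 1.33, 1.24 to 1.43) and 79.3 CPM against 52.7 CPM in B-like cells (ratio 1.51, 1.32 to 1.72). T-like cells had no other nuclear member higher, where 6.91% of all genes were, and NK or ILC1-like cells only Uqcrq beside it, where 7.13% were. Uqcrq, a subunit of complex III, was higher in 6 of 9 types, with 114 CPM in PKM2ΔMAC and 87.3 CPM in PKM2FL/FL B-like cells (ratio 1.31, 1.18 to 1.45). Cox7b of complex IV was higher in 4 of 8 types, and Cox6c and Ndufa4 in 4 of 9 each. Ndufa4, first assigned to complex I and now counted with complex IV, was above 0 in all 9 types, from 0.07 to 0.38 on the log2 scale. Neutrophil-like cells had 3 of 26 nuclear members higher, where 5.79% of all genes were, and 3 lower, where 44.4% were.

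Classical monocyte-like cells had 2 of 28 nuclear members higher and 3 lower, below the 15.9% and 16.3% of all genes. Endothelial-like cells had 3 of 16 higher and 1 lower, below the 28.1% and 18.4% of all genes. Atp5a1, the alpha subunit of the catalytic head of ATP synthase, had 89.9 CPM in PKM2ΔMAC and 137 CPM in PKM2FL/FL neutrophil-like cells (ratio 0.654, 0.536 to 0.797) and lay below 0 in all types but Kupffer-like cells. In the Kupffer-like cells of the matching cluster Atp5a1 was below 0 as well, at -0.30 (ratio 0.813, 0.575 to 1.15). The beta subunit Atp5b stayed between -0.19 and 0.09 on the log2 scale in all 9 types. Uqcrfs1, the iron-sulphur protein of complex III, was lower in 2 types, with 132 CPM in PKM2ΔMAC and 176 CPM in PKM2FL/FL plasmacytoid dendritic-like cells (ratio 0.746, 0.616 to 0.903). In classical monocyte-like cells Sdhb, the iron-sulphur subunit of complex II, had 71.2 CPM in PKM2ΔMAC and 128 CPM in PKM2FL/FL (ratio 0.556, 0.392 to 0.776). Uqcrc1, a core protein of complex III, had 75.9 CPM there against 111 CPM (ratio 0.683, 0.483 to 0.951). Ndufa6, Ndufb8, Uqcrh, Cox4i1, Cox8a and Atp5b were neither higher nor lower in any of the 9 types. Ndufv1 was neither in the 6 types in which it passed. Atp5j, a stalk subunit of ATP synthase, was the member farthest from 0 in endothelial-like cells, with 482 CPM in PKM2ΔMAC and 269 CPM in PKM2FL/FL (ratio 1.79, 1.33 to 2.41).

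The ratios of all genes moved with transcript length. By the median length of a gene's protein-coding transcripts in GENCODE M21, the 29 nuclear genes had a median of 645 bases, the citric acid cycle genes 1589 bases and all genes that passed in T-like cells 2096 bases. The mitochondrially encoded genes had a median of 957 bases. In T-like cells the median log2 ratio of all genes was -0.01 under 600 bases and -0.17 at 4000 bases or more. The corresponding values were 0.05 and -0.12 in B-like cells, 0.12 and -0.13 in plasmacytoid dendritic-like cells and -0.05 and -0.39 in neutrophil-like cells. Only endothelial-like cells, at -0.04 and 0.25, ran the other way among the 9 types. The 11 nuclear members under 600 bases that passed had a median of -0.01 in T-like cells and -0.05 in neutrophil-like cells, the same as all genes of that length. In all other compared types the members of that length had higher medians than all genes of that length. The values were 0.17 against 0.05 in B-like and 0.25 against 0.12 in plasmacytoid dendritic-like cells. They were 0.16 against 0.05 in conventional dendritic-like, 0.10 against 0.05 in classical monocyte-like and 0.08 against 0.04 in NK or ILC1-like cells. With 7 members passing, they were 0.17 against 0.10 in Kupffer-like and 0.08 against -0.04 in endothelial-like cells. The 3 nuclear members from 2000 to under 4000 bases had medians farther from those of all genes of their length. These were 0.64 against -0.06 in plasmacytoid dendritic-like and 0.22 against -0.16 in T-like cells. In endothelial-like cells the 1 such member that passed stood lower, at -0.24 against 0.17. Gm42418, a gene that overlaps ribosomal RNA, and Malat1 were lower in PKM2ΔMAC T-like cells as well, with ratios of 0.394 and 0.774. The ratio of Gm42418 was 0.283 in Kupffer-like, 0.338 in neutrophil-like, 0.410 in classical monocyte-like and 0.674 in endothelial-like cells, and that of Malat1 0.704, 0.615, 1.01 and 0.869 in the same order. The part of length and RNA quality in the members' ratios was not tested.

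**Figure D5:**
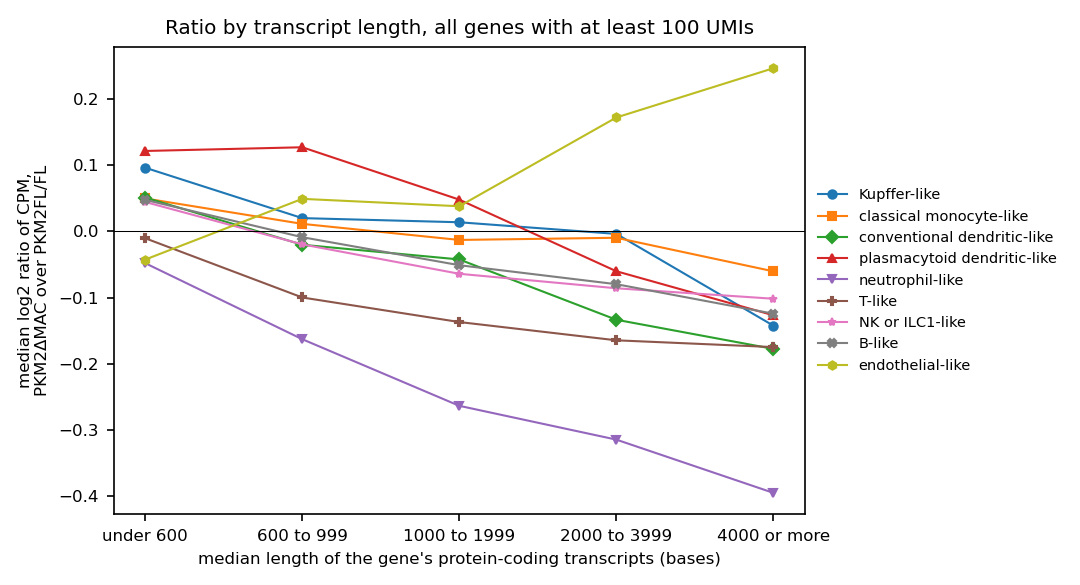
Median log2 ratio of CPM of PKM2ΔMAC over PKM2FL/FL (y axis) of all genes with at least 100 UMIs, by the median length of their protein-coding transcripts in bases (x axis), 1 line per cell type. In neutrophil-like cells the median goes down to -0.39 at 4000 bases or more, and endothelial-like cells alone end above 0.

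Nuclear respiratory genes are known targets of the transcription factor NRF1, and the promoters of 3 members are shown because they hold its core motif and yet the genes had different ratios. The motif was searched on both strands as GCGCANGCG in windows of 250 bases before to 50 bases after the start site (RefSeq, build GRCm38.p6), with overlapping matches counted separately. Of 40 nuclear members 32 matched a promoter. The motif was found in 7 of 22 promoters of the respiratory chain members (31.8%) and 1 of 10 of the citric acid cycle members (10.0%), against 6.47% of 27025 promoters of all genes. Cycs (chr6:50566520-50566819, minus strand) held 1 match, Atp5k (chr5:108434350-108434649, minus strand) 2 and Uqcrc1 (chr9:108936398-108936697, plus strand) 3, all in capitals:
Cycs: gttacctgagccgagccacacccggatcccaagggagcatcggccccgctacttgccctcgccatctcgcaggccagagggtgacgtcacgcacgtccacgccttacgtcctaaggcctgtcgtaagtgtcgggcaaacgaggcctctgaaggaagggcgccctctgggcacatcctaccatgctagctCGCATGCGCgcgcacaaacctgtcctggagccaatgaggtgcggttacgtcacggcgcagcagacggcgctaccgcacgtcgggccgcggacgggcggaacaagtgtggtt
Atp5k: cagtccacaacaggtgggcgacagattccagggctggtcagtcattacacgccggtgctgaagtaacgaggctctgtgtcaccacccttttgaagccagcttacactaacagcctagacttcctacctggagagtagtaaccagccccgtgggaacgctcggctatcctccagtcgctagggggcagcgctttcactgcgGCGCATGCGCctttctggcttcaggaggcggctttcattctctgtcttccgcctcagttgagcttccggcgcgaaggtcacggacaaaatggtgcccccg
Uqcrc1: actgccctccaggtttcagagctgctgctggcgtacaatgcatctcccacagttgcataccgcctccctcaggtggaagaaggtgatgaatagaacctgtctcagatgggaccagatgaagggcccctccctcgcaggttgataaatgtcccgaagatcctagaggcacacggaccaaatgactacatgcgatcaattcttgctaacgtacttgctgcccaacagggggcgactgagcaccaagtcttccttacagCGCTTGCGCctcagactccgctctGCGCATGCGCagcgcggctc
Cycs and Atp5k, whose promoters hold the motif, had log2 ratios of 0.83 and 0.92 in plasmacytoid dendritic-like cells, whereas Uqcrc1 stood at -0.08 there. Ndufa6, with 1 match, was neither higher nor lower in any of the 9 types, and Uqcrq, Cox6c and Ndufa2 were not among the matched promoters. A match describes the sequence only. Nrf1 itself had 32.1 CPM in PKM2ΔMAC and 44.4 CPM in PKM2FL/FL T-like cells (ratio 0.722, 0.635 to 0.821). Esrra, a nuclear receptor that acts on respiratory genes, had 13.2 CPM against 21.9 CPM there (ratio 0.606, 0.498 to 0.735). The half-site core of its receptor family was searched in the same promoters. It was found in 0 of 22 respiratory chain and 0 of 10 citric acid cycle promoters, against 0.407% of all genes. The core motif of YY1, also searched, was found in 1 of 22 and 1 of 10, against 1.49% of all genes. Of 7 regulators of mitochondrial biogenesis that passed in T-like cells 2 were lower, close to the 27.9% of all genes lower in that type. In B-like cells 0 of 7 were lower and 1 higher, where 17.2% and 8.46% of all genes were.

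The citric acid cycle genes had few UMIs, and the minimum was passed by 2 of 11 in Kupffer-like cells, 7 in classical monocyte-like cells, 6 in neutrophil-like cells and none in endothelial-like cells, against all 11 in the other 5 types. Over 70 pairs that passed, 5 were higher and 9 lower, which is below the shares of all genes, 10.0% higher and 22.2% lower. Their sum was 818 CPM (712 to 935) in PKM2ΔMAC and 939 CPM (839 to 1048) in PKM2FL/FL Kupffer-like cells, a difference within counting error (-0.20, -0.46 to 0.06), but -0.53 without the cells of other clusters. In neutrophil-like cells it was 379 CPM in PKM2ΔMAC and 470.4 CPM in PKM2FL/FL (-0.31, -0.45 to -0.17), which is -0.04 relative to the median of all genes. There Sdha, the flavoprotein of complex II and the enzyme that oxidises succinate, had 45.5 CPM in PKM2ΔMAC and 77.6 CPM in PKM2FL/FL (ratio 0.586, 0.444 to 0.770). Cytosolic malate dehydrogenase, Mdh1, had 20.6 CPM against 33.0 CPM (ratio 0.624, 0.408 to 0.945). Plasmacytoid dendritic-like cells held 4 of the 5 higher pairs. In them Mdh2, the mitochondrial malate dehydrogenase, had 138 CPM in PKM2ΔMAC and 97.0 CPM in PKM2FL/FL (ratio 1.42, 1.13 to 1.79) and fumarase, Fh1, 55.8 CPM against 36.7 CPM (ratio 1.52, 1.05 to 2.23). Idh3g, a regulatory subunit of isocitrate dehydrogenase, was lower there, at 50.9 CPM against 70.8 CPM (ratio 0.719, 0.529 to 0.981), and in T-like cells, at 52.3 CPM against 66.7 CPM (ratio 0.784, 0.708 to 0.868). Citrate synthase, Cs, was lower only in neutrophil-like cells among the 7 types in which it passed, and Suclg1, a subunit of succinyl-CoA ligase, was neither higher nor lower in the 5 types in which it did.

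The rest of the pathway was looked at through lists of other genes. Of 373 pairs of the 50 other respiratory chain genes that passed, 84 were higher and 24 lower, where 10.0% of all genes were higher and 22.2% lower. Atp5e, Ndufab1 and Uqcrb were higher in 6 types each, without a share of all genes for that number of types. Of 65 pairs of the mitochondrial gene expression machinery 8 were higher and 7 lower, against the same shares of all genes. In T-like cells 2 of 21 were higher and 3 lower, with a median log2 ratio of -0.13. Polrmt, the RNA polymerase of mitochondria, had 7.65 CPM in PKM2ΔMAC and 3.85 CPM in PKM2FL/FL T-like cells (ratio 1.99, 1.41 to 2.82), and 12.1 CPM against 6.78 CPM in B-like cells (ratio 1.79). Mterf4, of the mitochondrial transcription terminator family, had 3.29 CPM against 6.38 CPM in T-like cells (ratio 0.516, 0.347 to 0.756). Of 29 pairs of regulators of mitochondrial biogenesis 1 was higher and 7 lower, and of 47 pairs of other citric acid cycle genes none was higher and 9 lower, and the shares lower are close to the 22.2% of all genes. None of the machinery or regulator genes passed in Kupffer-like cells.

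Within the T-like cells the small excess of mitochondrially encoded RNA was not shared by all subsets. Cells with CD8 markers but fewer than 2 resting markers had 29925 CPM in PKM2ΔMAC and 26783 CPM in PKM2FL/FL (0.16), and resting CD8 cells 33794 CPM against 32363 CPM (0.06). Resting CD8 cells, the subset with the highest level, were 887 of 1967 PKM2ΔMAC and 548 of 2364 PKM2FL/FL T-like cells. The part of this mix in the T-like sum was not tested. Resting CD4 cells stood at a log2 ratio of -0.09, other CD4 cells at 0.04 and T-like cells without a subset at 0.07. Interleukin 17 type cells had 28310.0 CPM in 212 PKM2ΔMAC cells and 31280.0 CPM in 151 PKM2FL/FL cells, a log2 ratio of -0.14. Their nuclear respiratory sum was 7386 CPM against 6638 CPM (0.15).

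Cycling T-like cells also parted the 2 genomes, a comparison made inside each library. In T-like cells with at least 3 cell cycle markers the nuclear respiratory sum was 9206 CPM in 52 cycling PKM2ΔMAC cells against 5938 CPM in 1720 PKM2ΔMAC cells with no such marker (ratio 1.55, 1.51 to 1.59). In PKM2FL/FL it was 9212 CPM in 34 cycling cells against 5971 CPM in 2093 other cells (ratio 1.54, 1.5 to 1.58). The citric acid cycle sum was higher as well, with ratios of 1.55 (1.44 to 1.67) in PKM2ΔMAC and 1.76 (1.63 to 1.89) in PKM2FL/FL. The mitochondrially encoded sum was lower in cycling cells, with ratios of 0.815 (0.804 to 0.826) in PKM2ΔMAC and 0.831 (0.818 to 0.844) in PKM2FL/FL. Sdhb had 177 CPM in cycling and 64.7 CPM in other PKM2ΔMAC cells, and 142.0 CPM and 67.8 CPM in PKM2FL/FL cells. Fh1 had 55.3 CPM and 18.2 CPM in PKM2ΔMAC and 61.9 CPM and 17.7 CPM in PKM2FL/FL. Uqcrh, the hinge protein of complex III, was lower in cycling cells, with ratios of 0.841 in PKM2ΔMAC and 0.880 in PKM2FL/FL. Cycling cells were deeper, with medians of 13454 UMIs in PKM2ΔMAC and 17226 UMIs in PKM2FL/FL against 5589.5 UMIs and 5388 UMIs. In NK or ILC1-like cells the ratios of the nuclear sum were 1.22 in PKM2ΔMAC and 1.33 in PKM2FL/FL, and those of the mitochondrially encoded sum 0.907 and 0.971. B-like cells had only 3 cycling cells in PKM2ΔMAC and 5 in PKM2FL/FL and are not described.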

How the data were processed

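UMI counts per gene and barcode of 1 PKM2ΔMAC and 1 PKM2FL/FL library were used as deposited by the authors, and the file headers name Cell Ranger 6.0.0. Build mm10 and Seurat 4.3.0 are named per the submitters' processing notes, whereas alignment settings and the chemistry version were not found in the sources used here. Cells with at least 300 genes and under 20% mitochondrial UMIs were kept, and doublets called by Scrublet (scanpy 1.11.5, expected rate 0.08) were removed, 304 (3.42%) in PKM2ΔMAC and 475 (4.75%) in PKM2FL/FL. Free RNA was not subtracted. A cell took the type with the most distinct markers, with at least 2 markers and a lead of 1, and monocyte-like cells needed 2 of their own. This left 522 PKM2ΔMAC cells (6.09%) and 577 PKM2FL/FL cells (6.06%) without a type. Clusters used to check the gate were made in scanpy from 2000 variable genes and 30 components and named from the gate's markers. UMIs were summed per type and library and divided by the summed total. Ratios carry exact conditional intervals, shares Clopper-Pearson intervals and levels Poisson intervals, all at 95% and for counting error only. A count of 0 stood at 3 UMIs in a ratio. The members, lists and gate were chosen with earlier results of these data known, and transcript length and the split at 0.5% were added after seeing the data. In Kupffer-like and classical monocyte-like cells any member that passed could be named. In other types the naming rule took, among members that passed, the highest and lowest mitochondrially encoded ratio, the 3 highest and 3 lowest nuclear and the 2 highest and 2 lowest citric acid cycle ratios. Other named members, such as Ndufa1 and mt-Nd4l with their neighbours, were chosen after their values were seen. The code for ratios and intervals was checked on simulated counts. The scripts used pandas 2.3.3, scipy 1.17.1, numpy 2.4.6 and Python 3.11.15. Members with near-identical copies elsewhere in the genome, such as Cycs, Uqcrh and Cox6c, are uncertain in counts made this way.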

Additional observations from a re-analysis of the deposited data

Results flagged for a closer look

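The mitochondrially encoded sum pointed in opposite directions in cell types of the same libraries, with intervals on either side of 0. Its log2 ratio of PKM2ΔMAC over PKM2FL/FL was -0.78 in Kupffer-like cells, 0.094 in T-like cells and 0.065 in NK or ILC1-like cells. With 1 library per genotype the difference between cell types was not tested.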

How the results depend on the processing

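No paired analysis was possible because each genotype has 1 library. The direction of the mitochondrially encoded sum was the same under all 11 alternatives in each of the 9 types. In Kupffer-like cells its log2 ratio of -0.78 became -0.68 under a limit of 10% mitochondrial UMIs, -0.89 without a limit, -0.57 with doublets kept, -1.32 as a mean of the cells' own CPM and -1.28 with cells thinned to 500 UMIs. It was -0.67 with at least 1000 UMIs per cell, -0.62 with 1 more marker, -0.67 with clusters in place of the gate and -0.68 without gated cells of other clusters, an alternative chosen after seeing the data. The nuclear sum of 0.21 in Kupffer-like cells was 0.027 with clusters and 0.022 without gated cells of other clusters. The citric acid cycle sum of -0.20 there was -0.55 as a mean of cells' CPM and -0.53 without gated cells of other clusters. In classical monocyte-like cells the mitochondrially encoded sum of -0.32 was -0.11 as a mean of cells' CPM, -0.15 thinned and -0.38 with clusters, and the nuclear sum of 0.02 was -0.032 as a mean of cells' CPM.

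Counts of pairs at least 1.5-fold apart, in place of 25% above and 20% below, were 0 higher and 17 lower for mitochondrially encoded genes (4 and 40), 14 higher and 2 lower for nuclear respiratory genes (46 and 8) and 1 higher and 2 lower for citric acid cycle genes (5 and 9). Under the limit of 10% mitochondrial UMIs 2 mitochondrially encoded pairs were higher. Thinning gave 72 higher and 33 lower nuclear and 15 higher and 17 lower citric acid cycle pairs. A minimum of 20 UMIs gave 14 lower nuclear and 8 higher and 20 lower citric acid cycle pairs, and no minimum 14 lower nuclear and 9 higher and 23 lower citric acid cycle pairs. Scaling by the median of gene ratios, and clusters, each gave 5 lower citric acid cycle pairs. Fewer UMIs per gene widen the counting error by construction in the thinned cells and under the lower minimums. For the other moved values the cause was not tested. Few UMIs limited the citric acid cycle genes in Kupffer-like and endothelial-like cells.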

Other observations

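Cell types with fewer than 50 cells in a library were not compared, and their values are given only as levels. Lipid-associated macrophage-like cells had 16208 CPM of mitochondrially encoded RNA in 21 PKM2ΔMAC cells and 25246 CPM in 63 PKM2FL/FL cells, next to nuclear respiratory sums of 7987 CPM and 7867 CPM, but 0 of these 84 cells lay in a cluster of the same name. Plasma-like cells differed in the other direction, with 31157 CPM in 66 PKM2ΔMAC cells and 25827 CPM in 27 PKM2FL/FL cells, and their nuclear sum was 9069 CPM in PKM2ΔMAC and 11053 CPM in PKM2FL/FL. Basophil or mast-like cells had 19772 CPM in 23 PKM2ΔMAC cells and 17488 CPM in 29 PKM2FL/FL cells. Mesothelial-like cells had 19479 CPM in 23 PKM2ΔMAC cells and 25871 CPM in 27 PKM2FL/FL cells. Smooth muscle or fibroblast-like cells had 32519 CPM in 82 PKM2ΔMAC cells and 32191 CPM in 24 PKM2FL/FL cells. Cholangiocyte-like cells had the highest sums of the 15 types, 38146 CPM in 8 PKM2ΔMAC cells and 44612 CPM in 10 PKM2FL/FL cells. Lyz2, which encodes lysozyme M, had 26.9 CPM in PKM2ΔMAC and 19927 CPM in PKM2FL/FL classical monocyte-like cells.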
